A study of Mus musculus with 6 samples.

Results

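HOX genes encode homeodomain transcription factors that give cells their position along the head-to-tail axis of the embryo. In mammals they lie in 4 clusters, HoxA to HoxD, and are numbered so that genes with the same number in different clusters (paralogs) descend from a shared ancestor. Low numbers are used toward the head and high numbers toward the tail, and in the gut and in connective tissue adult cells keep much of this pattern, also in culture. HOX proteins bind DNA together with partners of the PBX and MEIS families, and their clusters are held silent by Polycomb complexes and kept active by Trithorax complexes. The genes described here were all rows whose symbol was Hoxa, Hoxb, Hoxc or Hoxd followed by a number, which gave 31 of the 14701 genes in the tables: 9 in HoxA, 9 in HoxB, 7 in HoxC and 6 in HoxD. RefSeq lists 39 coding HOX genes. The other 8 (Hoxa11, Hoxa13, Hoxb1, Hoxc11, Hoxc12, Hoxd11, Hoxd12 and Hoxd13) had no row and could not be analysed here, with or without treatment.

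The samples were 6 RNA-seq libraries of IEC 4.1, an established mouse line labelled as intestinal epithelium. The control group was 3 untreated samples (replicates 2, 3 and 4). The other group was 3 samples (replicates 1, 2 and 4) exposed for 6 h to interferon gamma (IFN gamma), 10 ng/ml. IFN gamma is a cytokine of lymphocytes and acts through STAT transcription factors. The sources used here name no genetic change, passage number or clone, and do not say whether replicates were separate cultures, so p-values may measure technical spread only.

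Libraries held 17490689 to 18678543 counts, of which HOX genes took 7293 to 7487 in controls and 8135 to 8616 after IFN gamma. The treatment labels matched a known IFN gamma target: Irf1 went from 84.0 ± 2.42 to 928.9 ± 12.5 TPM (transcript level scaled for gene length and library; mean ± SD, n = 3 per group). The cell type label was not matched by the markers. Of 12 epithelial genes, 8 had a row, none reached the level needed for testing, and the highest TPM in any library was 0.58. Of 12 mesenchymal genes, 11 had a row, with a summed TPM of 3629 to 3837 in controls and 3696 to 3933 after treatment. Most of this sum was Vim, at 2514 ± 86.7 and 2875 ± 42.4 TPM, and Lum was near 0 (0.0333 and 0.0933 TPM on average). The other marker lists had summed TPM of 612.3 to 633.1 in controls and 525.6 to 548.6 after treatment (smooth muscle, nearly all Acta2), 26.5 to 31.4 and 23.1 to 24.3 (leukocyte, with Ptprc at 0.0133 and 0 on average and nearly all of it Cd14), 0.11 to 0.14 and 0.11 to 0.27 (endothelial), and 0.35 to 0.69 and 0.33 to 0.59 (enteric neuron and glia). Between bulk samples, fewer cells expressing a gene and less RNA per cell cannot be told apart.

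The upstream sequences of 3 HoxD genes are given first because these genes had the 3 largest rises among HOX genes described below, and that of Hoxb8 because it had the largest rise outside HoxD. Each is the 250 bases before a RefSeq start (GRCm38.p6, plus strand, 5′ to 3′). Capitals mark a match to one of the motifs searched. The Hoxb8 window lies inside the annotated span of the gene, chr11:96279401-96285325, and not before its first base. Hoxd3 is read from chr2:74711743-74711992, Hoxd4 from chr2:74721728-74721977, Hoxd8 from chr2:74704365-74704614 and Hoxb8 from chr11:96281655-96281904.
Hoxd3: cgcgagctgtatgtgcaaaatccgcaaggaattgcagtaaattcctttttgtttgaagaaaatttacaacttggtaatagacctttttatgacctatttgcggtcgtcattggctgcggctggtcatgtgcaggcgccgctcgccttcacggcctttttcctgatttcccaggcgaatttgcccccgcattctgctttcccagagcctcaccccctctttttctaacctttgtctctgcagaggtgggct
Hoxd4: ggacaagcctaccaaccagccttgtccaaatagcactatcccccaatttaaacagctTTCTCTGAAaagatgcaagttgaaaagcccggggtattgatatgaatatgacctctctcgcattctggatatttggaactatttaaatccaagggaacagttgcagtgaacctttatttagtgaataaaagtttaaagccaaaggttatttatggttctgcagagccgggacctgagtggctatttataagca
Hoxd8: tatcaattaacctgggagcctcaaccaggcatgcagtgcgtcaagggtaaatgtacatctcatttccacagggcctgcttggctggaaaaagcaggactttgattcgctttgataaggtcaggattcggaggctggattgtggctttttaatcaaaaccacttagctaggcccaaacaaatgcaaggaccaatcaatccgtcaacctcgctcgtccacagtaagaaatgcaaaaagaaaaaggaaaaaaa
Hoxb8: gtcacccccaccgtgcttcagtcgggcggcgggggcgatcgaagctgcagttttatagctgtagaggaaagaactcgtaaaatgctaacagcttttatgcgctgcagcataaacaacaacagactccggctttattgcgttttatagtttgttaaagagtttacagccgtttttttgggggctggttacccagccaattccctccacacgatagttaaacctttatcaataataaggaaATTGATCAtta
Of the 31 genes, 16 had an entry in the promoter table. The STAT dimer motif (GAS, TTCNNNGAA, which reads the same on both strands) was found in 1 of these 16, Hoxd4, as TTCTCTGAA at chr2:74721785-74721793, 193 to 185 bases before the start. In the promoters of all genes it was present in 7.02% of 32851. The Irf1 promoter held the same motif as TTCCCCGAA at chr11:53769924-53769932. The interferon-stimulated response element (GAAANNGAAA, both strands) was in none of the 16 and in 2.98% of all promoters. A PBX-HOX motif (TGATNNAT, both strands, chosen after the data were seen) was in 2 of the 16, Hoxa2 and Hoxb8, and in 7.68% of all promoters. In Hoxb8 it lies 11 to 4 bases before the start used here, which is inside the annotated span of the gene. These are matches of letters in a 250-base window and do not show binding.

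In untreated cells HOX transcripts came from all 4 clusters and were centred on paralog groups 4 to 9. HoxB gave 46.7 ± 0.695% of the summed HOX TPM (159.2 ± 6.85 of 341.1 ± 16.2; SD, n = 3), HoxC 30.5 ± 0.537%, HoxD 11.7 ± 0.145% and HoxA 11.1 ± 0.0977%. By paralog number, group 9 was highest with a summed TPM of 95.5 ± 0.429, followed by group 4 with 57.5 ± 4.13, group 6 with 45.4 ± 3.10 and group 8 with 39.5 ± 2.66. The central groups 4 to 8 made up 56.7 ± 1.35% of the HOX signal, groups 9 to 13 made up 31.9 ± 1.34% and groups 1 to 3 made up 11.4 ± 0.475%. At the posterior end, group 13 summed to 2.16 ± 0.227 TPM.

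**Figure D1:**
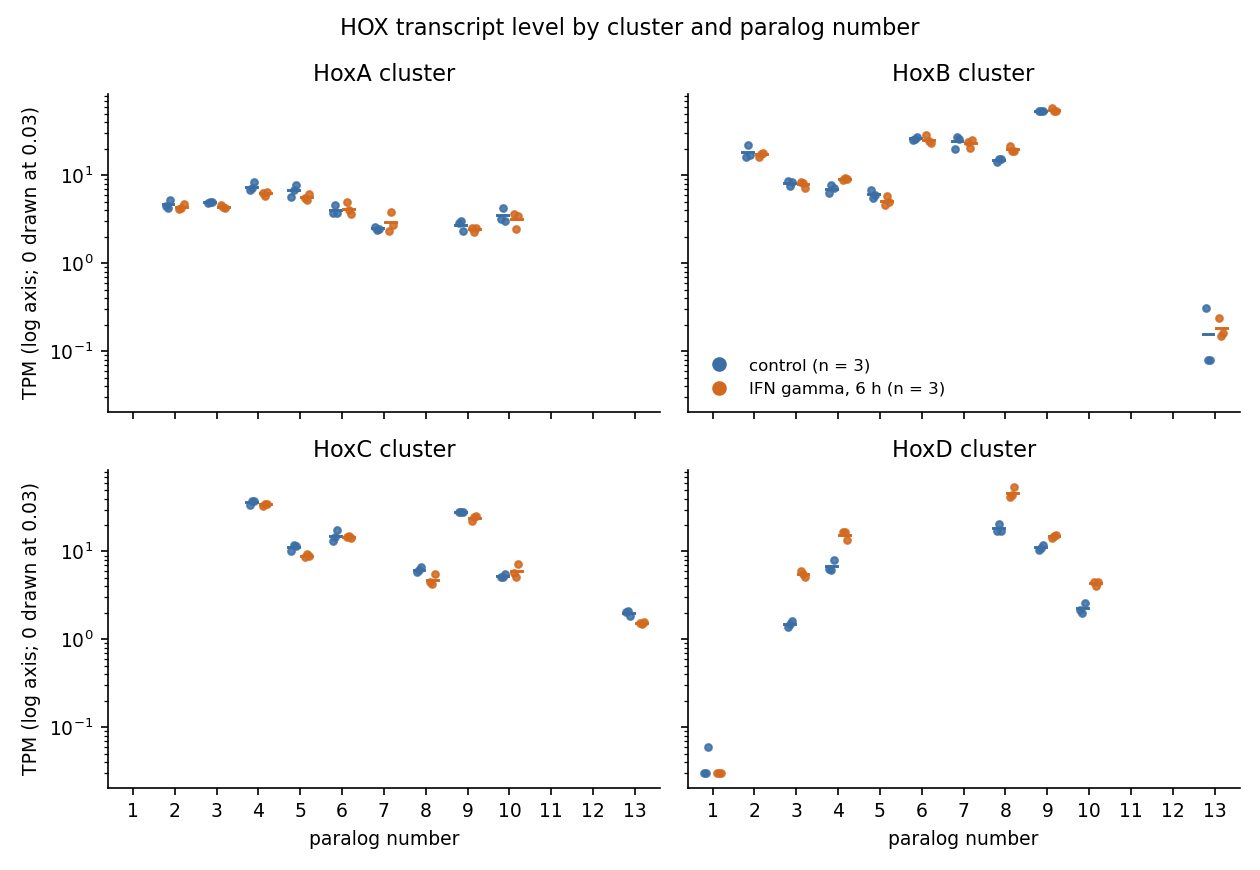
TPM of 30 of the 31 HOX genes by paralog number, 1 panel per cluster, on a log axis. Points are the 3 control and 3 IFN gamma libraries, short lines are group means (left out where a library is at 0), and a value of 0 is drawn at 0.03. The HoxA genes shown lie between 2.27 and 8.29 TPM in every library, HoxB and HoxC hold the most abundant genes, and the treated points lie above the control points for 5 of the 6 HoxD genes.

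Hoxb9, a posterior gene that acts in thoracic patterning, was the most abundant HOX gene, at 53.8, 53.3 and 53.4 TPM in control replicates 2, 3 and 4. Its 3 values lay above every control value of every other HOX gene, and 79.5% of the genes in the tables had a lower mean control TPM. Hoxc4, a cervical-level gene, followed at 33.6, 37.2 and 37.8 TPM, and Hoxc9, which sets thoracic motor neuron identity, at 27.9, 28.3 and 28.2 TPM. These 3 genes did not overlap with each other or with the next in the order. Below them the ranges of Hoxb6 (25.4 to 27.4 TPM), Hoxb7 (20.1 to 27.5), Hoxb2 (15.9 to 22.3), Hoxd8 (16.9 to 20.6), Hoxc6 (13.2 to 17.3) and Hoxb8 (14.3 to 15.5) overlapped between each gene and the next. Further apart in this order some did not: Hoxb6 lay above Hoxb2 and all after it, and Hoxb7 above Hoxc6 and Hoxb8. Hoxb6 to Hoxb8 and Hoxc6 are trunk-level genes, and Hoxb2 patterns the hindbrain.

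The HoxA genes formed a low series. Hoxa4 had the highest mean control TPM of the cluster, 7.42 ± 0.772. Below it lay Hoxa2 (4.67), which patterns the second branchial arch, Hoxa3 (4.92), needed for the thymus and parathyroid, Hoxa5 (6.72), needed for lung and gut mesenchyme, Hoxa6 (4.04), Hoxa7 (2.49), Hoxa9 (2.75), and Hoxa10 (3.49), known for its role in the uterus. In HoxB, the genes outside the group named above were Hoxb3 at 8.24, Hoxb4 at 7.06 and Hoxb5 at 6.09. In HoxC, Hoxc5 stood at 11.2, Hoxc8 at 6.23, Hoxc10 at 5.25 and Hoxc13, a gene of hair and nail formation, at 2.00. In HoxD, Hoxd9 stood at 11.1, Hoxd4 at 6.88, Hoxd10 at 2.25 and Hoxd3 at 1.503. Hoxb13, a gene of the tail end and prostate, had 6 counts over the 3 controls and 7 over the 3 treated libraries. Hoxd1 had 1 count in controls and 0 in treated libraries, where 0 counts allow a level of up to 0.0551 CPM (counts scaled to library size; 3 counts over the 3 libraries, counting error only). All 186 HOX count values were whole numbers to within 1e-09.

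With IFN gamma, 8 HOX genes were higher and none was lower at an adjusted p under 0.05, and all 5 tested HoxD genes were among the 8. The test (edgeR quasi-likelihood with Benjamini-Hochberg adjustment over 11423 genes) could be made for 29 of the 31 genes, since Hoxb13 and Hoxd1 were below the count filter. The 8 of 29 (27.6%) stand beside 19.9% of all tested genes that were called higher, and the 0 beside 18.1% called lower. At an unadjusted edgeR p under 0.05, 2 of the 29 HOX genes were lower, Hoxc5 and Hoxc8, beside 21.9% of all tested genes. DESeq2 and limma-voom also called 8 higher, the same 8 genes, and 0 lower. Of the 29, 4 were called and at least 2-fold higher, against 4.03% of all genes, and all 4 were in HoxD. The CPM of the 3 treated libraries lay above all 3 controls for 9 of the 29, against 24.7% of all genes. It lay below all 3 controls for 5 others (Hoxa3, Hoxc5, Hoxc8, Hoxc9 and Hoxc13). The share of all genes in that direction is not given here. The median log2 change was 0.04 over the 29 HOX genes and 0.01 over all tested genes.

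**Figure D2:**
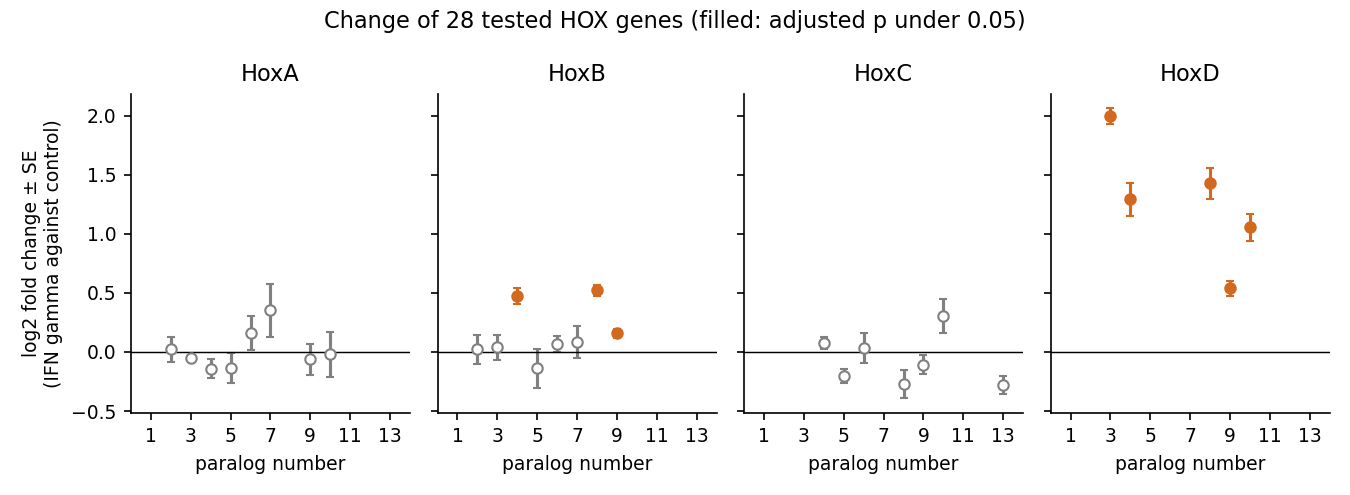
Log2 fold change (IFN gamma against control, n = 3 each) of 28 of the 29 tested HOX genes by paralog number, 1 panel per cluster. Bars are standard errors computed from the replicates, and filled points have an adjusted p under 0.05. The 5 HoxD points lie between 0.54 and 2.00, while the HoxA and HoxC points shown lie between -0.28 and 0.35.

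The HoxD genes were higher from number 3 to number 10. Hoxd3, an anterior gene at chr2:74711993-74748271 (GRCm38), was at 1.4, 1.5 and 1.61 TPM in controls and 6.07, 5.57 and 5.08 TPM after treatment. All 3 treated libraries lay over 3 times the highest control, and the log2 change was 2.00 ± 0.07 (SE; edgeR adjusted p = 5.35e-11). It moved from rank 28 to rank 18 among the 31 genes. Hoxd4, its neighbour at chr2:74721978-74729160 and the gene with the GAS match shown above, was at 6.38, 6.23 and 8.02 TPM and then at 16.6, 16.5 and 13.7 TPM. The groups were well apart, with a log2 change of 1.29 ± 0.14 (edgeR adjusted p = 9.83e-10).

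Hoxd8, a trunk-level gene at chr2:74704615-74707933, gained the most transcript in absolute level, from 16.9, 20.6 and 17.2 TPM to 42.2, 43.4 and 54.5 TPM. Its log2 change was 1.43 ± 0.13 (edgeR adjusted p = 2.05e-11), and its mean moved from rank 7 to rank 2, behind that of Hoxb9. The treated values of these 2 genes overlapped, with Hoxb9 at 53.6 to 58.3 TPM. Hoxd9, at chr2:74697763-74700208, had the smallest change of the cluster, from 10.4, 10.98 and 11.9 TPM to 14.3, 15.0 and 15.5 TPM, a log2 change of 0.54 ± 0.07 (edgeR adjusted p = 3.29e-05). Hoxd10, a gene of the hind limb and lumbar cord at chr2:74684273-74695106, was at 2.18, 1.99 and 2.58 TPM and then at 4.54, 4.02 and 4.49 TPM, a log2 change of 1.06 ± 0.11 (edgeR adjusted p = 1.53e-05). For neither gene did the groups overlap. The order of the changes did not follow the order of the genes along the chromosome, where Hoxd9 lies between Hoxd10 and Hoxd8.

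In GENCODE, Hoxd3 and Hoxd4 overlap each other on the same strand, the antisense gene Hoxd3os1 overlaps Hoxd3, Hoxd4 and Hoxd8, and the antisense gene Haglr overlaps Hoxd3. Over all clusters, 12 of the 31 genes overlap another coding gene on their strand and 13 overlap a gene on the other strand. No source says whether the counting used strand. Reads of these partners may therefore be included in the values, and those of Hoxd3, Hoxd4 and Hoxd8 are uncertain to that degree. Hoxd9 overlaps no other gene in that annotation, and Hoxd10 overlaps only the noncoding Gm28309 on its own strand. Markers moved with the treatment as well. Of 10 tested mesenchymal markers, 3 were higher and 6 lower, beside 19.9% and 18.1% of all tested genes. Dcn stood at a log2 change of 0.87 and Pdgfra at -0.65. Of 3 tested smooth muscle markers, 2 were lower, with Tagln at -0.31. The part of the markers in the HoxD result was not tested.

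The summed TPM of HoxD went from 37.3, 41.3 and 41.4 in controls to 83.7, 84.5 and 93.3 after IFN gamma, and its share of the HOX signal from 11.7 ± 0.145% to 23.0 ± 1.10%. The groups did not overlap in either measure. HoxB was at 159.2 ± 6.85 and 163.2 ± 6.40 TPM, with overlapping groups. HoxA was at 37.8 ± 2.08 and 34.4 ± 1.20 TPM and HoxC at 104.0 ± 5.55 and 94.3 ± 3.57 TPM; in both, the lowest control lay just above the highest treated library (35.4 and 35.2 TPM in HoxA, 97.9 and 97.5 TPM in HoxC). On the log2(TPM + 0.1) scale the median of all tested genes was also lower, at -0.10. Total HOX TPM was 341.1 ± 16.2 in controls and 379.2 ± 7.07 after treatment. Paralog group 8, which holds Hoxd8, went from 39.5 ± 2.66 to 71.3 ± 6.51 TPM, and the central groups 4 to 8 from 56.7 ± 1.35% to 59.7 ± 0.356% of the HOX signal, while group 9 was at 95.5 ± 0.429 and 96.9 ± 0.516 TPM.

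**Figure D3:**
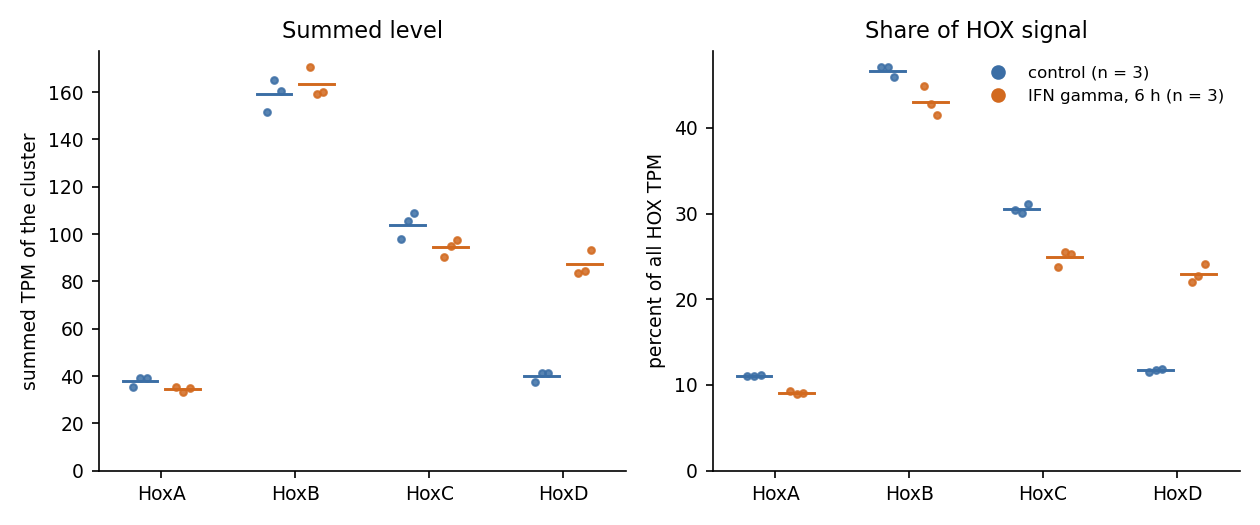
Summed TPM of each cluster (left) and its percent of all HOX TPM (right) in the 3 control and 3 IFN gamma libraries, with lines at the group means. HoxD lies at 37.3 to 41.4 TPM in controls and 83.7 to 93.3 TPM after treatment, and its share is higher in every treated library than in any control.

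To compare HoxD with the other clusters gene for gene, each HoxD gene was divided by its same-numbered paralog within each library, which removes any scaling of whole libraries. There were 12 such pairs, and in all 12 the ratio was higher in every treated library than in any control (exact two-sided permutation p = 0.1 for each before and after adjustment over the 12, the smallest p that 3 against 3 allows). The 12 ratios share 5 HoxD genes, all called higher above, so they are not 12 separate observations. Of all tested genes, 24.7% had a CPM above all controls in every treated library. The share over other pairs of genes is not given here. The log2 ratio changed the most for Hoxd3 over Hoxa3, from -1.71 to 0.34, a change of 2.05 ± 0.07 (SE): Hoxd3 stood at 0.305 of the Hoxa3 level in controls and at 1.26 of it after treatment. Hoxd4 went from 0.924 to 2.50 of Hoxa4, and from 0.971 to 1.72 of Hoxb4, although Hoxb4 itself was higher. Hoxd8 went from 2.92 to 9.76 of Hoxc8 and from 1.21 to 2.35 of Hoxb8. The smallest change was that of Hoxd9 over Hoxb9, 0.38 ± 0.09, from 0.208 to 0.270.

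**Figure D4:**
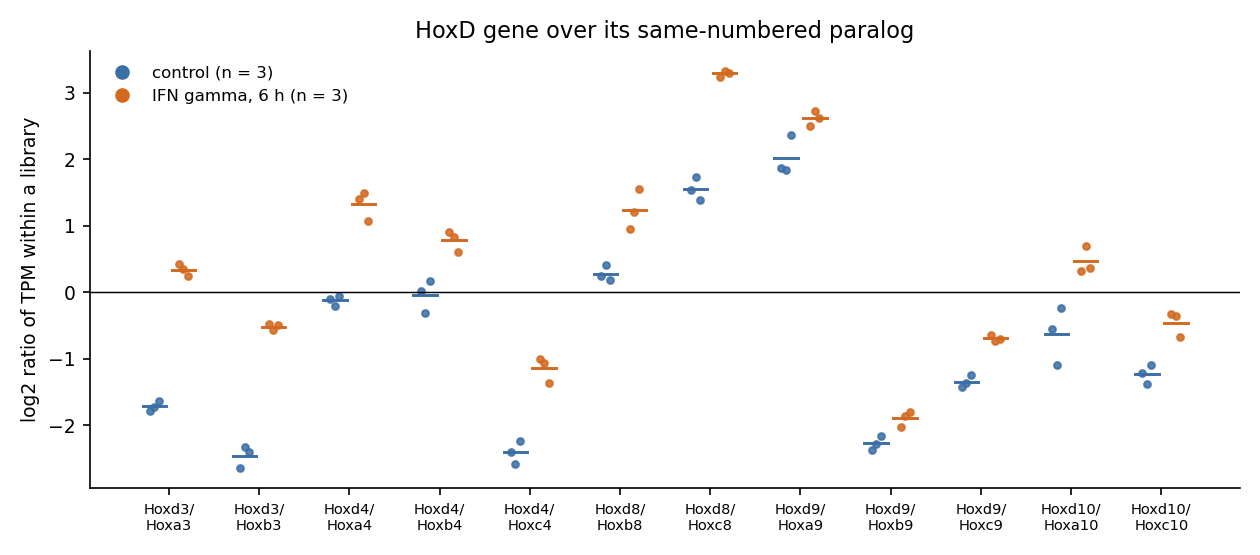
Log2 ratio of the TPM of each HoxD gene to that of its same-numbered paralog within a library, for 12 pairs, with 3 control and 3 IFN gamma libraries and lines at group means. In all 12 pairs the treated points lie above the control points, by 0.38 to 2.05 on average.

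In HoxB, 3 of 8 tested genes (37.5%) were higher and 0 lower, beside 19.9% and 18.1% of all tested genes. The median log2 change of the 8 was 0.07. Hoxb8, a gene used to hold blood progenitors in an undifferentiated state, was at 14.3, 15.5 and 15.2 TPM in controls and 21.7, 18.9 and 18.7 TPM after treatment, with groups apart and a log2 change of 0.52 ± 0.05 (edgeR adjusted p = 5.74e-06). Hoxb4, a regulator of blood stem cell expansion, was at 6.32, 7.69 and 7.16 TPM and then at 8.82, 9.33 and 8.98 TPM, a log2 change of 0.47 ± 0.07 (edgeR adjusted p = 0.000408). Hoxb9 passed with a small change, 0.16 ± 0.04 (edgeR adjusted p = 0.0236), and its treated TPM of 58.3, 54.2 and 53.6 overlapped with its controls. This call was lost under 5 other settings (adjusted p of 0.131 with upper-quartile scaling, 0.208 with total-count scaling, 0.584 and 0.583 with limma on log2 TPM at pseudocounts of 0.1 and 1, 0.166 with the replicate block) and without control replicate 3 (0.139), control replicate 4 (0.129), treated replicate 1 (0.108) or treated replicate 2 (0.0659). The other 5 tested HoxB genes did not pass, with log2 changes of 0.02 for Hoxb2, 0.04 for Hoxb3, -0.14 for Hoxb5, 0.06 for Hoxb6 and 0.08 for Hoxb7; those of Hoxb2, Hoxb3 and Hoxb6 changed sign with total-count scaling and that of Hoxb7 by limma on log2 TPM.

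In HoxA, 0 of 9 genes were called in either direction by edgeR, DESeq2 or limma-voom. Of all tested genes, edgeR called 19.9% higher and 18.1% lower. At an unadjusted edgeR p under 0.05 there were also 0, beside 23.5% of all tested genes higher and 21.9% lower. The median log2 change was -0.05. Hoxa7 stood at 0.35 ± 0.22 (edgeR adjusted p = 0.157). Without treated replicate 1, Hoxa7 passed at 0.50 (edgeR adjusted p = 0.0495). Log2 changes were 0.02 for Hoxa2, -0.05 for Hoxa3, -0.14 for Hoxa4, -0.13 for Hoxa5, 0.16 for Hoxa6, -0.06 for Hoxa9 and -0.02 for Hoxa10. None of the 9 was called lower with any scaling.

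In HoxC, 0 of 7 genes were called in either direction with edgeR's TMM scaling, by DESeq2 or by limma-voom. Of all tested genes, edgeR with TMM called 19.9% higher and 18.1% lower. The median log2 change of the 7 was -0.11. At an unadjusted edgeR p under 0.05, 2 were lower (Hoxc5 and Hoxc8) and 1 higher (Hoxc10), beside 21.9% and 23.5% of all tested genes. Hoxc5 was at 10.2, 11.8 and 11.4 TPM in controls and 8.70, 9.41 and 8.81 TPM after treatment, with groups apart and a log2 change of -0.20 ± 0.06 (edgeR adjusted p = 0.0639). Hoxc8, a thoracic-level gene, was at 5.84, 6.24 and 6.61 TPM and then at 4.49, 4.32 and 5.53 TPM, also apart, at -0.27 ± 0.12 (edgeR adjusted p = 0.0783). Both were called lower with upper-quartile scaling (adjusted p of 0.0198 and 0.0335), with total-count scaling (0.0126 and 0.0247) and by limma on log2(TPM + 0.1) (0.0109 and 0.0123). Hoxc8 was also called lower without treated replicate 4 (0.0148). Hoxc9 at -0.11 and Hoxc13 at -0.28 were not called by edgeR, although their groups did not overlap. By limma on log2(TPM + 1) both were called lower (adjusted p of 0.0226 and 0.0447). Hoxc10 was at 0.30 ± 0.14 (edgeR adjusted p = 0.0824) and passed without treated replicate 2 (0.0425). Hoxc4 and Hoxc6 lay at 0.07 and 0.03. The sign of Hoxc6 changed with upper-quartile and total-count scaling, and both signs changed by limma on log2 TPM.

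The change around HoxD was set beside the coding genes within 500 kb of the cluster. Of 3 tested neighbours, Mtx2, a mitochondrial outer membrane protein gene 60.7 kb from the cluster, was higher by 0.32 ± 0.02 (log2; edgeR adjusted p = 6.74e-05). Lnpk, an endoplasmic reticulum junction gene 88.8 kb away on the other side, stood at 0.05 ± 0.07 (edgeR adjusted p = 0.584), and LOC105244208 at 0.09 ± 0.05. All 3 were below the smallest HoxD change, 0.54. Around the other clusters 1 of 3 (HoxA), 3 of 10 (HoxB) and 3 of 14 (HoxC) tested neighbours were called higher, beside 19.9% of all tested genes. In the fixed list of flanking genes, 5 of 16 tested were higher (median 0.08) and 0 lower, beside 19.9% and 18.1% of all tested genes. At an unadjusted edgeR p under 0.05, 1 was lower, beside 21.9% of all tested genes. Under the alternative settings 0 to 2 were called lower. The smallest adjusted p was that of Snx10, an endosomal sorting gene on the HoxA side but outside the 500 kb window, which went from 17.1 ± 1.33 to 99.5 ± 8.83 TPM, followed by that of Mtx2, of Cbx1 at 0.29 and of Skap2 at 0.37. Atp5g3, a subunit gene of ATP synthase and the most abundant of the list at 1298 ± 60.1 TPM in controls, stood at 0.08 and was not called.

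**Figure D5:**
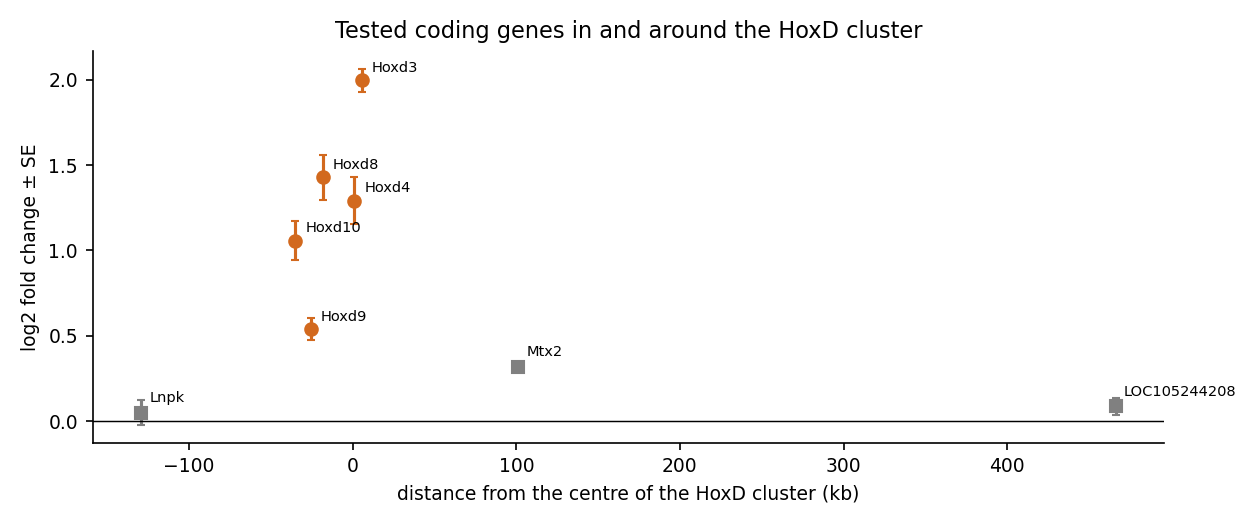
Log2 fold change (IFN gamma against control, n = 3 each, bars are SE) of the tested coding genes in HoxD (circles) and within 500 kb of it (squares), by distance of the gene's middle (HoxD genes) or near end (neighbours) from the centre of the cluster. The centre is that of the 6 HoxD genes analysed. Lnpk is placed by its distance from the end of the RefSeq cluster, which also holds Hoxd11 to Hoxd13. It is therefore drawn closer to the centre than it lies. The HoxD genes lie at 0.54 to 2.00, and the 3 neighbours lie at 0.05 to 0.32.

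Of 8 tested HOX cofactors, which bind DNA jointly with HOX proteins, 1 was higher and 1 lower, beside 19.9% and 18.1% of all tested genes. Pbx3 was lower (12.5 ± 0.456 to 10.0 ± 0.314 TPM, -0.21, edgeR adjusted p = 0.0374). The call of Pbx3 was lost with DESeq2 (0.098), with the replicate block (0.0596) and without control replicate 2 or 4 or any treated replicate (0.0608 to 0.0947). The list's median was 0.13. Pbx2, the most abundant at 26.9 ± 1.07 TPM, stood at 0.12 (edgeR adjusted p = 0.153; 0.018 without treated replicate 4), and Pknox1 at -0.13 (0.106). Of 28 chromatin regulators of HOX clusters, 4 were higher and 3 lower, with a median of -0.01, beside 19.9% and 18.1% of all tested genes. By limma on log2(TPM + 0.1) 1 was higher and 8 lower, and with total-count scaling 2 and 9. Without treated replicate 1 the counts were 2 and 6. Psip1, which tethers MLL complexes to chromatin and was the most abundant at 207.8 ± 8.92 TPM, was higher by 0.28 (edgeR adjusted p = 0.000132; 0.0927 with limma on log2(TPM + 0.1)), and Men1, its partner in those complexes, by 0.29 (0.000503). Dot1l, a histone H3 lysine methyltransferase of transcribed genes, was lower (log2 change -0.33, adjusted p = 0.000299), and Wdr5, a core subunit of MLL complexes, was lower too (-0.19, 0.00677). The Polycomb subunit genes Ezh2, Eed and Suz12 stood at 0.02, 0.04 and 0.10 and were not called, and all 3 signs turned on the log2(TPM + 0.1) scale. Other Polycomb genes of the list were called in both directions. Ezh1 was higher by 0.24 (edgeR adjusted p = 0.0126) and Cbx2 was lower (log2 change -0.25, edgeR adjusted p = 0.0116). The call of Ezh1 was lost by limma on log2(TPM + 0.1) (adjusted p = 0.33). That of Cbx2 was lost without control replicate 4 (edgeR adjusted p = 0.073).

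Retinoic acid is a known inducer of HOX genes, and genes of its pathway moved in both directions. Of 10 tested, Cyp26b1, whose enzyme degrades retinoic acid, was higher (0.183 ± 0.0839 to 1.27 ± 0.121 TPM, log2 change 2.82 ± 0.25, edgeR adjusted p = 2.60e-09). Rdh10, whose enzyme makes the retinoic acid precursor, was lower (18.4 ± 1.08 to 11.5 ± 0.680 TPM, -0.57 ± 0.06, edgeR adjusted p = 5.32e-06). The receptor gene Rara was lower as well (19.3 ± 0.602 to 13.4 ± 0.595 TPM, -0.42 ± 0.03, edgeR adjusted p = 2.21e-05). The list's median was -0.09. The receptor gene Rarg, the most abundant at 130.3 ± 4.48 TPM, stood at 0.01.

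Other position-linked factors were set beside the HOX pattern. Of 22 gut-regional transcription factors 10 had a row; Cdx1 and Cdx4, which regulate HOX genes in the gut and trunk, were listed at a mean control TPM of 0.02 and 0.0233 and were not tested. All 7 tested had a log2 change below 0 (median -0.29). Of these, 5 were called lower and 0 higher, beside 18.1% and 19.9% of all tested genes. Under the alternative settings the counts were 4 to 5 and 0. Sox2, a foregut gene, went from 19.2 ± 1.11 to 11.1 ± 1.12 TPM (log2 change -0.68, edgeR adjusted p = 3.77e-07). Foxf1, the most abundant of the list and a gene of gut mesenchyme, went from 36.2 ± 3.65 to 27.3 ± 1.5 TPM (-0.29, edgeR adjusted p = 0.00101) and its relative Foxf2 from 16.6 ± 0.784 to 11.9 ± 0.588 TPM (-0.37, edgeR adjusted p = 0.000842). Foxl1, of the mesenchyme beside the gut epithelium, was lower at a very low level (0.667 ± 0.258 to 0.247 ± 0.0289 TPM, edgeR adjusted p = 0.00677). Of 12 tested limb and trunk mesenchyme factors 2 were higher and 4 lower (median -0.10), beside 19.9% and 18.1% of all tested genes. Twist2, a dermal and mesenchymal factor and the most abundant at 165.1 ± 9.47 TPM, fell to 94.4 ± 5.20 TPM (log2 change -0.70, edgeR adjusted p = 7.83e-09), Tbx18 and Prrx2 stood at -0.50 and -0.57, and En1, a limb and dermis gene, was higher by 0.59 (edgeR adjusted p = 8.71e-07).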

How the data were processed

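The 6 IEC 4.1 RNA libraries were read on a DNBSEQ instrument, per the labels. The submitters' processing notes list HISAT, HISAT2 and the builds mm10 and GRCm38.p6 without roles; the counting program and its use of strand are not stated. The deposited tables give estimated counts (6.8% to 7.37% of them not whole, by library) and, per the file headers, TPM and FPKM values scaled for gene length and library. Of 14701 coding genes listed, 0 have no count in any of the 3 controls and 673 have none in the 3 treated libraries, so genes not detected in controls are not covered.

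Counts were rounded and tested with edgeR 4.0.16 (R 4.3.3). filterByExpr with a minimum count of 10 kept 11423 genes, and TMM factors ranged from 1.016 to 1.033 in controls and were 0.9717 to 0.9816 after treatment. glmQLFit was robust, and Benjamini-Hochberg adjustment ran over all tested genes with a threshold of 0.05. Standard errors come from the replicates' log2 CPM (prior count 2), and the script was tested on simulated data. Levels are TPM and were compared by their spread over libraries. Alternatives were DESeq2 1.42.0, limma 3.58.1 (voom, and log2 TPM with pseudocounts of 0.1 and 1), 3 other scalings, no filter, the replicate block, FPKM for cluster shares, and each library left out. Sequences and the set of coding HOX genes come from RefSeq (GRCm38.p6), overlaps from GENCODE vM21. The HOX rows are named, and in each list up to 4 genes of smallest adjusted p and the most abundant one, except some genes that are not reported here. Ezh1, Ezh2, Eed, Suz12, Cbx2, Cdx1, Cdx4, the HoxD neighbours Lnpk and LOC105244208 and the marker genes were named after their values were seen. The HOX genes, lists and tests were chosen with earlier results of these data known. Python 3.11.15 with pandas 2.3.3, scipy 1.17.1 and matplotlib 3.10.9 made tables and figures.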

Additional observations from a re-analysis of the deposited data

How the results depend on the processing

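The call of Hoxd3, Hoxd4, Hoxd8, Hoxd9, Hoxd10, Hoxb4 and Hoxb8 as higher was kept, with the same direction, under all 15 alternatives, and the count of HOX genes called higher was 7 or 8 throughout. The count called lower, 0 in the edgeR fit, was 2 with upper-quartile scaling, 2 with total-count scaling, 3 with limma on log2(TPM + 0.1), 4 with limma on log2(TPM + 1), and 0 to 1 with a library left out (1 without treated replicate 4). These scalings shift all genes: the calls over all genes, 2278 higher and 2069 lower with TMM, were 1775 and 2823 with upper-quartile scaling, 1644 and 3124 with total-count scaling, and 1313 and 3283 with limma on log2(TPM + 0.1), where the median log2 change was -0.10. Small log2 changes of 8 genes that no setting called changed sign. With upper-quartile scaling they became -0.0308 for Hoxa2, -0.0312 for Hoxb2, -0.015 for Hoxb3 and -0.0219 for Hoxc6. With total-count scaling they became -0.0492 for Hoxa2, -0.05 for Hoxb2, -0.033 for Hoxb3, -0.0076 for Hoxb6 and -0.0409 for Hoxc6. By limma on log2(TPM + 0.1) they became -0.0829 for Hoxa2, -0.078 for Hoxb2, -0.0498 for Hoxb3, -0.0587 for Hoxb6, -0.0723 for Hoxb7, -0.0778 for Hoxc4 and -0.0296 for Hoxc6. By limma on log2(TPM + 1) they became -0.0698 for Hoxa2, -0.0749 for Hoxb2, -0.0447 for Hoxb3, -0.0565 for Hoxb6, -0.0699 for Hoxb7, -0.0759 for Hoxc4 and -0.0284 for Hoxc6. With the replicate block they became 0.0404 for Hoxa10, -0.044 for Hoxb3, -0.0204 for Hoxb6 and -0.0006 for Hoxc6. With a library left out, they ranged from -0.06 to 0.0872 for Hoxa2, -0.1325 to 0.1142 for Hoxa10, -0.0612 to 0.1367 for Hoxb2, -0.0385 to 0.1114 for Hoxb3, -0.0113 to 0.1094 for Hoxb6, -0.0173 to 0.1504 for Hoxb7 and -0.0659 to 0.1341 for Hoxc6. The cause of these shifts was not tested. Replicate numbers 2 and 4 occur in both groups, but same-numbered samples deviated together with r = 0.128 and -0.09, so the numbers do not show a pairing. The replicate block left 7 HOX genes called higher, without Hoxb9, and 0 lower. That fit takes its effect from replicates 2 and 4 only and has 1 residual degree of freedom. Counts of listed genes called lower ranged over the alternatives from 2 to 9 for chromatin regulators (called higher, 1 to 4), 2 to 4 for the retinoic acid pathway and 4 to 5 for gut-regional factors. Depth limits Hoxb13 and Hoxd1, which were below the count filter.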
